A study of Mus musculus with 16 samples.

Results

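Glycolysis and the transcriptional response to low oxygen were examined through 31 genes of the 51912 in the count table of mouse lung group 2 innate lymphoid cells (ILC2s). The genes were listed by name from the textbook pathway and not by their values in these libraries, although earlier results of these data were known by then. They comprised 2 glucose transporters, 9 enzymes of upper glycolysis (hexokinase to triose phosphate isomerase), 2 enzymes that set the level of fructose 2,6-bisphosphate, 5 enzymes of lower glycolysis (glyceraldehyde-3-phosphate dehydrogenase to pyruvate kinase), 4 genes of lactate formation and lactate transport, 3 genes of oxygen sensing and 6 hypoxia target genes. All 31 were found in the table, and 29 passed the filter on low counts over the 16 libraries, whereas Aldoc and Slc16a3 did not.

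Cells were sorted from lungs of WT (Pac1+/+) or Pac1-/- mice on a C57BL/6J background, 6 to 8 weeks old, expanded in culture with IL-2 and IL-7, and then kept for 4 hours with one of 4 additions. The additions were IL-7 (100 ng/mL), IL-7 plus IL-33 (100 ng/mL), IL-7 plus IL-33 plus the neuropeptide CGRP (500 ng/mL), or IL-7 plus IL-33 plus the neuropeptide NMU (500 ng/mL), so that IL-7 was present in all of them. For short, these are called IL-7, IL-33, CGRP and NMU below. Each of the 8 groups had 2 libraries of bulk mRNA-Seq, each from about 500 cells sorted again after culture, whose amplified cDNA carried no molecular identifiers. The labels do not say whether the 2 libraries of a group came from separate mice or cultures, so the p-values measure the spread between these libraries, which may be technical. The knockout was present in every cell of the animal, and the cells had been expanded before treatment.

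Total counts ranged from 6764992 to 15963357 per library (median 11071278), and 3 counts, the floor used here, corresponded to 0.188 to 0.443 CPM (each library's counts scaled to the same total). Genes that define ILC2s were abundant, at a summed 11803 to 33241 CPM over 10 markers, of which Il5 alone held 5185 to 27464 CPM. Tbx21, C1qa, C1qb, Sftpb and Cd8a were at 0 in every library, but other genes of their marker lists were detected. The 4 ILC1 and NK markers summed to 0 to 15.7 CPM and the 2 ILC3 markers to 0 to 17.9 CPM, both highest with IL-7. PAC1 is encoded by Dusp2, which had 0 counts in all 8 Pac1-/- libraries but was also at or under the floor in 6 of 8 WT libraries, so this transcript is a weak check of the labels. The WT NMU and the Pac1-/- CGRP libraries stood apart in markers of other cells. The 3 endothelial markers summed to 59.96 and 91.9 CPM in the WT NMU libraries and to 14.7 to 52.1 CPM in the 14 others. The 5 markers of alveolar type 2 and club cells summed to 331 and 188 CPM in the WT NMU libraries and to 11.1 to 83.2 CPM in the 14 others. The 7 macrophage and monocyte markers summed to 123 and 39.6 CPM against 1.19 to 15.8 CPM. Most of this was Lyz2 alone, at 112 and 27.9 CPM. Cd68, at 11.4 and 10.8 CPM, lay within the range of the other libraries, so the list as a whole did not stand apart. The 4 B cell markers summed to 270.2 and 280.3 CPM in the Pac1-/- CGRP libraries and to 0 to 78.0 CPM in the 14 others. The 5 T cell markers, mostly Cd3g, summed to 237 to 337 CPM with IL-7 and to 33.7 to 173 CPM with the other additions. The mitochondrially encoded share of counts was 8.60% to 10.2% with IL-7, 3.94% to 7.96% with IL-33, 8.30% to 12.6% with CGRP and 3.32% to 5.54% with NMU. Values without the WT NMU or Pac1-/- CGRP libraries are given below for the genotype comparison over all treatments and for treatment comparisons containing them. In the tests within CGRP or NMU and in the interactions they cannot be left out, since no WT or Pac1-/- library would remain.

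Glycolysis turns glucose into pyruvate, with ATP made at the phosphoglycerate kinase and pyruvate kinase steps, and lactate dehydrogenase A reduces pyruvate to lactate, which leaves the cell through monocarboxylate transporters. When oxygen is scarce, the prolyl hydroxylases that mark hypoxia-inducible factor 1 alpha (HIF-1 alpha) for degradation slow down, and the stabilised factor binds a short DNA motif near many glycolytic genes and near genes such as Vegfa and Bnip3. Activated lymphocytes raise glycolysis even when oxygen is plentiful, and in ILC2s glucose use has been tied to proliferation and cytokine output.

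The promoters of 4 glycolytic genes, chosen by name among the members described in full, are shown as sequence only. Their part in the levels was not tested. Each is the stretch of 250 bases before the most upstream start site listed by RefSeq, on the plus strand of GRCm38.p6. Capitals mark the core letters of the HIF motif, ACGTG or GCGTG, read on either strand. The positions are chrX:106186850-106187099 for Pgk1, chr19:41911621-41911870 for Pgam1, chr4:150236458-150236707 for Eno1 and chr7:46845554-46845803 for Ldha.
Pgk1: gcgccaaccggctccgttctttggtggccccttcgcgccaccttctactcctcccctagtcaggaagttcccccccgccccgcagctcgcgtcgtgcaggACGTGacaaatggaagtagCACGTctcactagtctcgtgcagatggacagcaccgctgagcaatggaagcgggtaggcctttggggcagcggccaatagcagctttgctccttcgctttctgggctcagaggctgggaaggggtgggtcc
Pgam1: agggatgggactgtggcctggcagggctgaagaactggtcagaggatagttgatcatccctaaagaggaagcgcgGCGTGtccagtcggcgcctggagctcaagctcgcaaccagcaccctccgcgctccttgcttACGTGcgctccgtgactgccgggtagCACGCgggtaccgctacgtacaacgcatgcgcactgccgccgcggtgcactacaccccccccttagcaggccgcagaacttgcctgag
Eno1: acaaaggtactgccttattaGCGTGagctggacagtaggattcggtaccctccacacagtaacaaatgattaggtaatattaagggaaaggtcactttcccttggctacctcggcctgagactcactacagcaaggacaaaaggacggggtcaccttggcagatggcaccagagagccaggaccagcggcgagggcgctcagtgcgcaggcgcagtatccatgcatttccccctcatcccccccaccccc
Ldha: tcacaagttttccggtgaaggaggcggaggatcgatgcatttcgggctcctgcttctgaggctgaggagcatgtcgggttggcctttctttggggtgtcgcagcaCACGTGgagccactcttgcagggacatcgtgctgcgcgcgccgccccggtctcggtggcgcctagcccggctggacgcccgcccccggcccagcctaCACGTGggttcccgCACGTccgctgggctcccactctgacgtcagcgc
The Pgk1 stretch held 2 matches to ACGTG, the Pgam1 stretch 1 match to ACGTG and 2 to GCGTG, the Eno1 stretch 1 match to GCGTG, and the Ldha stretch 5 matches to ACGTG, 4 of which are both strands of the 2 palindromes CACGTG. Ldha also held 1 match to TGACGTCA, the letters of the cAMP response element, in lower case here.

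Over all listed starts, ACGTG or GCGTG lay in the same window of 28 of the 30 members with a RefSeq promoter (93.3%), and Slc2a3 was not matched. Among all 27025 genes with such a window 41.5% held either motif, and among the 9922 of these whose symbols passed the low-count filter the share was 60.1%. ACGTG alone was found in 19 members (63.3%, against 24.7% of the expressed genes), GCGTG in 21 (70%, against 48.8%), and CACGTG, which contains ACGTG, in 6 (20%, against 9.48%). TGACGTCA was found in 1 member (3.33%, against 3.03%). Gpi1 and Tpi1 had neither ACGTG nor GCGTG in this window. The members were listed as glycolysis and hypoxia genes, so a higher share of HIF letters can come from the list itself. Genes with more listed starts also had more windows in which to match, and the number of starts was not held equal. A match is a description of letters, not of a bound site.

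Levels differed widely within the pathway. On the scale of TMM-scaled CPM per kb of exon, which allows genes of different length to be compared, Ldha, encoding the A subunit of lactate dehydrogenase, had the highest median over 16 libraries at 485 (range 271 to 842). Aldoa, which cleaves fructose 1,6-bisphosphate, followed at 153 (109 to 382), Pgk1, phosphoglycerate kinase, at 125 (67.2 to 202), and Hif1a, the oxygen-sensitive HIF-1 subunit, at 110.0 (77.2 to 179). The ranges of Aldoa, Pgk1 and Hif1a overlapped, so that their order is not fixed by these libraries. The fifth member, the phosphoglycerate mutase gene Pgam1, had a median of 15.0, and 20 members had a median below 10.

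Where several genes encode the same step, one of them held most of the transcripts in nearly every library. Hk2, an inducible hexokinase, exceeded Hk1 per kb in 16 of 16 libraries, with a median share of 96.8% of their sum. Ldha exceeded Ldhb in 16 of 16 libraries (median share 97.6%), Aldoa exceeded Aldoc in 16 of 16, and the lactate transporter gene Slc16a1 exceeded Slc16a3 in 16 of 16. Pfkp, the platelet form of phosphofructokinase, exceeded Pfkl and Pfkm in 15 of 16 libraries each, and Slc2a1, encoding the glucose transporter GLUT1, exceeded Slc2a3 in 14 of 16. The order was less regular for Pfkfb3 over Pfkfb4 (13 of 16) and for the prolyl hydroxylase genes Egln3 over Egln1 (12 of 16).

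**Figure D1:**
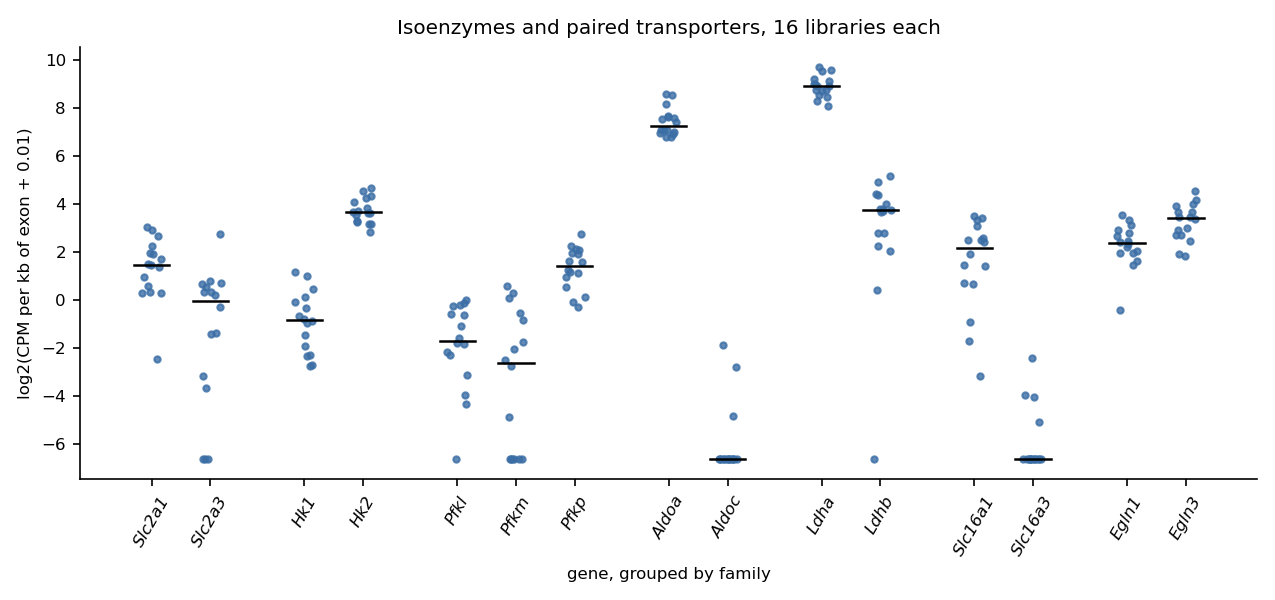
Level of genes that encode the same step or function, as log2 of TMM-scaled CPM per kb of exon plus 0.01 (y axis), for each gene (x axis). Each point is 1 of 16 libraries and each line the median, and Hk2, Ldha, Aldoa and Slc16a1 lie above their partners in 16 of 16 libraries.

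Some of these levels are uncertain because reads can be shared with near-identical genes, and how such reads were counted is not given in the sources used here. Gapdh, glyceraldehyde-3-phosphate dehydrogenase, held 26.2% of the counts summed over itself and the 149 annotated genes that match its transcripts, of which 141 are pseudogenes, and it ranked 19 of 31 per kb. Gpi1, glucose-6-phosphate isomerase, held 20.3% of the sum with 5 such genes, but most of that sum came from Mrpl27 and Wdr33. These match Gpi1 over only 101 and 124 bases. The longest match, the pseudogene Gm1840 over 1046 bases, had 109 counts against 7195 for Gpi1. Slc2a3 shares a stretch of sequence with 69 genes. Hk1, Pfkm, Pfkp, Hif1a and Ankrd37 overlap or match other annotated genes, and whether the counting used strand is not given either. For Pgk1, Pgam1, Eno1, Ldha and Aldoa the gene itself held at least 95.1% of such sums.

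**Figure D2:**
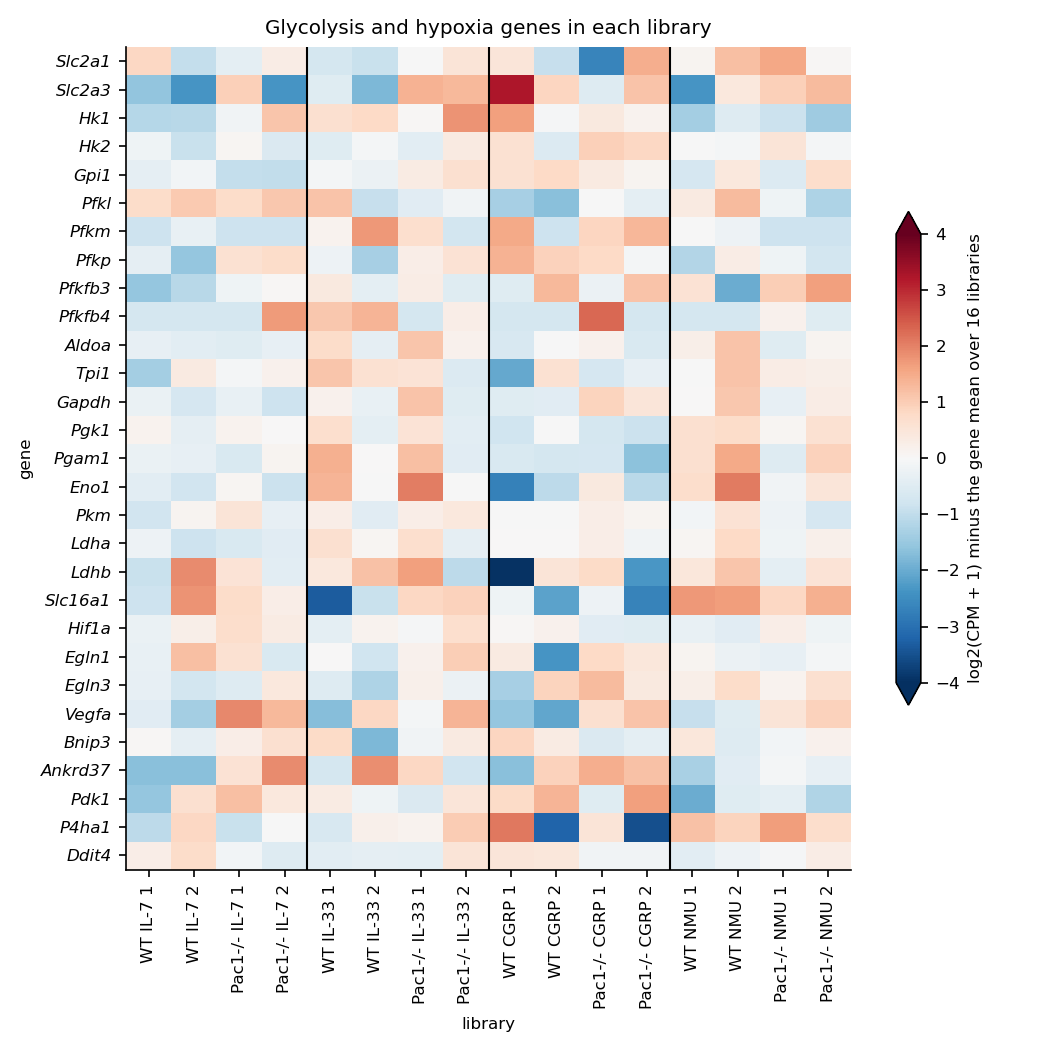
Level of the 29 genes that passed the low-count filter (rows) in each of the 16 libraries (columns), as log2(TMM-scaled CPM + 1) minus the gene's mean over the libraries. Vertical lines separate IL-7, IL-33, CGRP and NMU, and Eno1, Pgam1 and Aldoa are high in the first WT and first Pac1-/- IL-33 libraries and in the second WT NMU library.

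The effect of IL-33 was examined by comparing IL-33 with IL-7 over both genotypes, 4 libraries against 4. No member passed the cutoff in edgeR (fold change above 1.5 and adjusted p below 0.05): 0 of 29 tested were called, where 0.0462% of all 12980 genes were called. At an unadjusted p below 0.05 there were 4 members (Ldha, Eno1, Aldoa and Pfkm), all higher with IL-33, where 10.5% of all genes were below it. DESeq2 called 3 members, Ldha, Eno1 and Aldoa, where it called 3.26% of all genes. On simulated counts with known changes, unchanged genes made up a larger share of the calls of DESeq2 than of edgeR, and edgeR missed most of the changes. Those counts were drawn with edgeR's own estimates of spread, which can favor edgeR, and not for IL-33 against IL-7. For caution, calls made by DESeq2 alone are still treated as weaker evidence. The members' median log2 difference was 0.24 (19 of 29 above 0), and that of all genes was 0.09 (54.5% above 0).

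Ldha stood at 1377 and 897 CPM in the WT IL-7 libraries and at 1035.5 and 1165 CPM in the Pac1-/- IL-7 libraries. With IL-33 it stood at 2475 and 1675 CPM in WT and at 2537 and 1238 CPM in Pac1-/- libraries. In all, 3 of the 4 IL-33 libraries were above every IL-7 library, and the second Pac1-/- IL-33 library lay inside the IL-7 range. The log2 difference was 0.83 ± 0.25 (SE; edgeR unadjusted p = 0.00913, adjusted p = 0.364), and the adjusted p was 0.0284 in DESeq2.

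Eno1, enolase 1, which forms phosphoenolpyruvate, stood at 49.1 and 38.3 CPM (WT) and 70.5 and 36.1 CPM (Pac1-/-) with IL-7. With IL-33 the values were 171 and 65.2 CPM (WT) and 275 and 66.1 CPM (Pac1-/-). The first library of each genotype was far above the IL-7 range, and the second library of each lay within it. The log2 difference was 1.56 ± 0.48 (SE; edgeR adjusted p = 0.366), and the DESeq2 adjusted p was 0.0241.

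Aldoa, fructose-bisphosphate aldolase A, stood at 396 and 372 CPM (WT) and 355 and 395 CPM (Pac1-/-) with IL-7, and at 828 and 393 CPM (WT) and 1071 and 568 CPM (Pac1-/-) with IL-33. Only the second WT IL-33 library lay inside the IL-7 range. The log2 difference was 0.90 ± 0.28 (SE; edgeR adjusted p = 0.368), and the DESeq2 adjusted p was 0.0319. Without a filter on low counts, edgeR called the same 3 genes as DESeq2, where 0.752% of all genes were called, with adjusted p from 6.22e-04 for Eno1 to 0.0195 for Aldoa.

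No member had all 4 IL-33 libraries above, or all below, the 4 IL-7 libraries, where 2.65% of the 14979 genes tested were higher and 2.59% lower without overlap. By role, all 5 tested genes of lower glycolysis had a fitted log2 difference above 0 (0.19 to 1.56), as did 6 of 8 tested upper enzymes. The 3 oxygen-sensing genes were at -0.23 to -0.14, and 54.5% of all genes were above 0. Pfkm, muscle phosphofructokinase, had at most 49 counts in any library and 0 counts in 6 of 16, so its fitted difference depends on the prior count.

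The IL-33 libraries fell into a pattern that crossed the genotypes. The summed level of 6 enzyme genes (Aldoa, Tpi1, Pgk1, Pgam1, Eno1 and Ldha) was 4074 and 4414 CPM in the first WT and first Pac1-/- libraries, and 2424 and 2123 CPM in the second ones. In the 4 IL-7 libraries it was 1589 to 2166 CPM. In 7 of the 8 groups of the study the library with more Eno1 also had more of at least 4 of the other 5 enzymes, and in 7 of 8 it had the lower share of mitochondrially encoded counts, 4.83% against 7.96% in WT and 3.94% against 6.58% in Pac1-/- IL-33 libraries. The part of this share in the enzyme values was not tested. The 8 groups are descriptive here, since the 6 genes of a library share that library. The 6 genes were chosen by name, and how often any gene goes with Eno1 was not computed. The lower enzymes outside the 6 were Gapdh and Pkm. Gapdh stood at 14.8 and 10.4 CPM in WT and at 30.0 and 9.12 CPM in Pac1-/- IL-33 libraries. Pkm stood at 77.7 and 47.6 CPM in WT and at 79.0 and 87.8 CPM in Pac1-/- libraries, so it went with Eno1 only in WT.

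**Figure D3:**
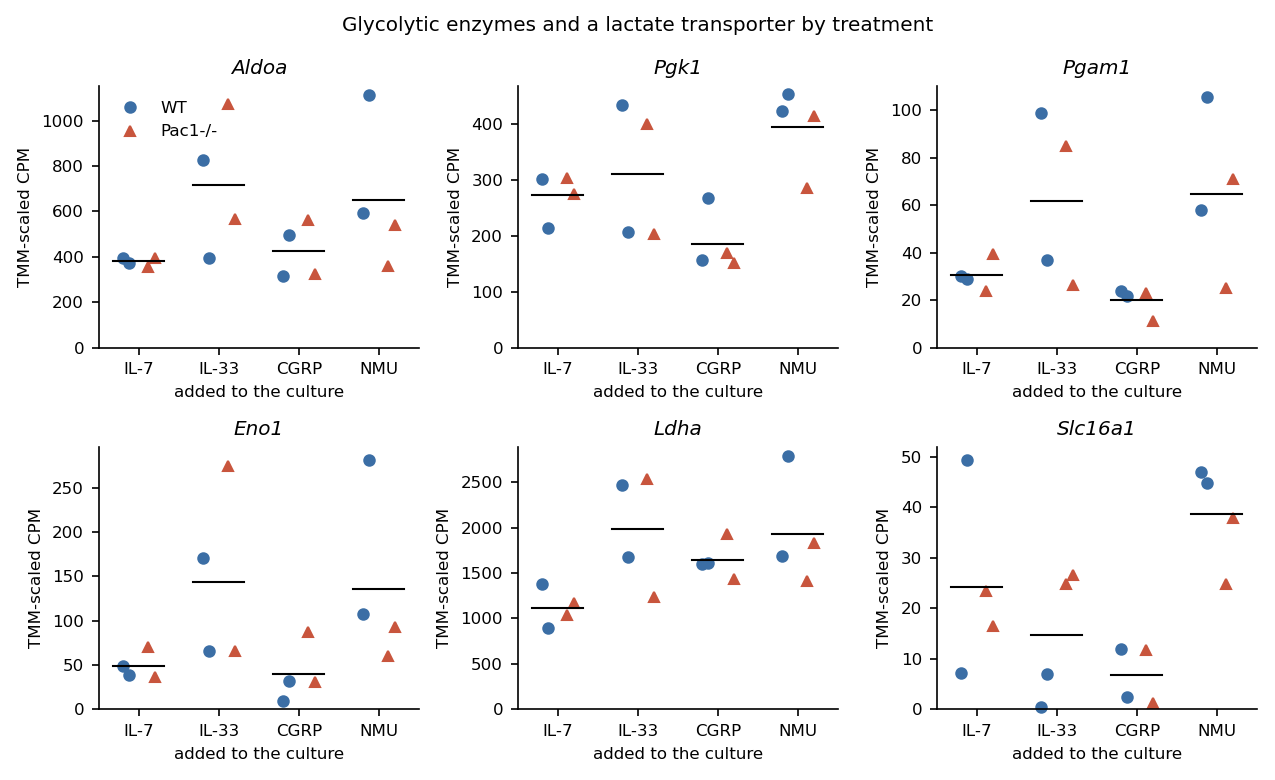
TMM-scaled CPM (y axes, from 0) of 5 glycolytic enzymes and the lactate transporter gene Slc16a1 by addition to the culture (x axes). Blue circles are WT and red triangles Pac1-/- libraries, black lines are means of 4 libraries, and Pgk1, Pgam1 and Slc16a1 with CGRP lie below every NMU library.

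CGRP was compared with IL-33, which the CGRP cultures also contained. No member of 29 tested was called in edgeR, where 1.75% of all genes were called. At an unadjusted p below 0.05 there were 3 members, Pgam1, Eno1 and Pgk1, all lower with CGRP, where 15.1% of all genes were below it. DESeq2 called Pgam1 and Eno1, where it called 8.19% of all genes. The members' median log2 difference was -0.04, and that of all genes -0.09. The 3 genes encode consecutive steps, from 1,3-bisphosphoglycerate to phosphoenolpyruvate. This describes the pathway only, since members were below that p no more often than all genes.

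Pgam1, phosphoglycerate mutase 1, stood at 99.1 and 37.0 CPM (WT) and 85.2 and 26.3 CPM (Pac1-/-) with IL-33. With CGRP the values were 23.7 and 21.9 CPM (WT) and 22.8 and 11.1 CPM (Pac1-/-). All 4 CGRP libraries were below all 4 IL-33 libraries, the only such case among the members tested, where 3.89% of all genes were lower and 5.82% higher without overlap. The log2 difference was -1.62 ± 0.49 (SE; edgeR adjusted p = 0.176), and the DESeq2 adjusted p was 0.0236.

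Eno1 with CGRP stood at 9.34 and 31.7 CPM (WT) and 87.6 and 30.6 CPM (Pac1-/-), against 65.2 to 275 CPM with IL-33. The first Pac1-/- CGRP library overlapped the IL-33 range. Eno1 differed by -1.998 ± 0.63 on the log2 scale (SE; edgeR adjusted p = 0.190, DESeq2 adjusted p = 0.00793). Pgk1, whose values follow, differed by -0.73 ± 0.31 (SE; edgeR adjusted p = 0.314) and overlapped. Without a filter edgeR called Pgam1, Eno1 and Aldoa, where 2.31% of all genes were called, and with at least 10 counts required in every library it called Eno1, where 7.06% were called.

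By sign, all 5 lower enzymes had fitted log2 differences below 0 in this comparison (-1.998 to -0.04), with Gapdh (-0.12) and Pkm (-0.04) close to 0. Of the upper enzymes, 4 of 8 were above 0, where 46.7% of all genes were above 0. This difference between upper and lower enzymes was not tested. Leaving out both Pac1-/- CGRP libraries, which carried B cell markers, gave log2 differences of -1.57 for Pgam1 and -2.52 for Eno1, with adjusted p of 0.470 and 0.390 in edgeR, and -0.59 for Pgk1 (adjusted p = 0.709).

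NMU was compared with IL-33 in the same way. No member of 28 tested was called in edgeR, where 0.103% of all genes were called, nor by DESeq2, where 1.35% were called. At an unadjusted p below 0.05 there were 2 members, Hk1 lower and Egln3 higher, where 7.73% of all genes were below it. The members' median log2 difference was -0.06, and that of all genes -0.07.

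Hk1, the widely expressed hexokinase, stood at 8.03 and 9.10 CPM (WT) and 4.89 and 19.0 CPM (Pac1-/-) with IL-33. With NMU it stood at 1.23 and 3.004 CPM (WT) and 2.20 and 1.17 CPM (Pac1-/-). All 4 NMU libraries were below all 4 IL-33 libraries, again the only such member, where 2.08% of all genes were lower and 2.27% higher without overlap. Hk1 differed by -2.41 ± 0.80 on the log2 scale (SE; edgeR unadjusted p = 0.0118, adjusted p = 0.523). Without the second Pac1-/- IL-33 library it was -1.82. Hk1 overlaps an antisense gene, so its reads cannot be told apart from that gene's without strand.

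The gene Egln3, a HIF prolyl hydroxylase that is itself a HIF target, stood at 17.2 and 10.1 CPM (WT) and 28.7 and 21.3 CPM (Pac1-/-) with IL-33. With NMU the values were 29.4 and 41.9 CPM (WT) and 27.9 and 40.0 CPM (Pac1-/-), which overlapped in 1 IL-33 library. Its log2 difference was 0.92 ± 0.39 (SE; edgeR adjusted p = 0.608). Slc2a1 stood at 5.202, 4.40, 9.04 and 13.4 CPM with IL-33 and at 9.84, 22.3, 28.4 and 9.44 CPM with NMU, in the same order of genotypes, and also overlapped (1.25 ± 0.58, adjusted p = 0.650). Without both WT NMU libraries, which carried epithelial markers and Lyz2, the log2 differences were -2.83 for Hk1, 0.43 for Egln3 and 0.75 for Slc2a1.

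CGRP and NMU, each given together with IL-33, were compared directly, 4 libraries against 4. Pgk1 was the 1 member of 28 tested that passed the cutoff in edgeR, and it was lower with CGRP, where 3.86% of all genes were called. At an unadjusted p below 0.05 there were 7 members, where 19.4% of all genes were below it: Pgk1, Pgam1, Slc16a1 and Eno1 were lower, and Pdk1, Pfkp and Hk1 were higher with CGRP. DESeq2 called 5 members, Pgk1, Pgam1, Slc16a1 and Eno1 lower and Pdk1 higher, where it called 13.0% of all genes. The members' median log2 difference was 0.03, as was that of all genes.

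Pgk1, phosphoglycerate kinase 1, the first ATP-forming step, lies on chromosome X at 106187100 to 106203699 (mm10, plus strand). With CGRP it stood at 157 and 267 CPM (WT) and 168 and 151 CPM (Pac1-/-). With NMU the values were 423 and 452 CPM (WT) and 285 and 413 CPM (Pac1-/-). No CGRP library reached the lowest NMU library, although the second WT CGRP library and the first Pac1-/- NMU library came close. For reference, IL-7 libraries held 302, 213, 303 and 275 CPM and IL-33 libraries 433, 206, 400.0 and 203 CPM in the same order of genotypes, so IL-33 libraries spanned both neuropeptide groups.

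Pgk1 was lower with CGRP by a fold of 2.09, a log2 difference of -1.07 ± 0.22 (SE; edgeR unadjusted p = 8.77e-04, adjusted p = 0.0332). The DESeq2 adjusted p was 2.02e-04. The call rested on the full set of libraries. Leaving out the first WT CGRP library gave an adjusted p of 0.0649, the first Pac1-/- CGRP library 0.0553, the second Pac1-/- CGRP library 0.0851, the first WT NMU library 0.0645, the second WT NMU library 0.0538 and the second Pac1-/- NMU library 0.111. It passed without the second WT CGRP library (0.0274) and without the first Pac1-/- NMU library (0.0324), in which case Pgam1 passed too (0.0473). The log2 difference stayed between -1.26 and -0.95 in these 8 fits. Without both WT NMU libraries it was -1.13 (adjusted p = 0.242), and without both Pac1-/- CGRP libraries -1.03 (adjusted p = 0.234).

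Pgam1 with NMU stood at 58.0 and 106 CPM (WT) and 25.2 and 71.1 CPM (Pac1-/-), all above the 11.1 to 23.7 CPM with CGRP. Its log2 difference was -1.65 ± 0.44 (SE; edgeR adjusted p = 0.0846, DESeq2 adjusted p = 0.00671). Slc16a1, which encodes the lactate and pyruvate transporter MCT1, stood at 11.9 and 2.30 CPM (WT) and 11.7 and 1.29 CPM (Pac1-/-) with CGRP. With NMU it stood at 46.9 and 44.8 CPM (WT) and 24.7 and 37.8 CPM (Pac1-/-), again with no overlap. Slc16a1 differed by -2.45 ± 0.76 on the log2 scale (SE; edgeR adjusted p = 0.126, DESeq2 adjusted p = 0.0104). Leaving out 1 library moved it to between -3.33, without the first Pac1-/- CGRP library, and -2.12, without the second WT CGRP library. For Slc16a1, IL-33 libraries held 0.45 and 6.90 CPM (WT) and 24.7 and 26.6 CPM (Pac1-/-), and thus covered the range of CGRP and the bottom of NMU.

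Pgk1, Pgam1 and Slc16a1 were the 3 members without overlap on the lower side, where 6.46% of all genes were lower, and Hk1 was the 1 member on the higher side, where 6.86% were higher. Eno1 overlapped between CGRP and NMU (59.9 to 282 CPM with NMU), with a log2 difference of -1.79 ± 0.78 (SE; DESeq2 adjusted p = 0.0398). Pdk1, the kinase that keeps pyruvate from entering the mitochondrial acetyl-CoA pathway, stood at 17.2, 26.1, 6.69 and 32.1 CPM with CGRP and at 1.69, 6.56, 7.16 and 3.60 CPM with NMU, in the order WT then Pac1-/-. Of the CGRP libraries, 1 overlapped the NMU range, and the log2 difference was 2.14 ± 0.76 (SE; edgeR adjusted p = 0.170, DESeq2 adjusted p = 0.0336). Without a filter edgeR called Pgk1, Pgam1, Eno1 and Slc16a1, where 4.15% of all genes were called, and with at least 10 counts required in every library it called Pgk1, Pgam1, Slc16a1 and Pdk1, where 13.5% were called.

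Without both WT NMU libraries the log2 differences between CGRP and NMU were -1.51 for Pgam1, -2.27 for Slc16a1, -0.37 for Eno1 and 1.85 for Pdk1. Without both Pac1-/- CGRP libraries they were -1.82, -2.66, -3.24 and 2.40 in the same order. No member passed the cutoff in either fit, and the Eno1 difference depended most on these libraries of the 4.

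Ldha did not separate the neuropeptides: it stood at 1429.7 to 1932 CPM with CGRP and 1409.7 to 2788 CPM with NMU, a log2 difference of -0.19. The comparisons of CGRP and of NMU with IL-33 share their IL-33 libraries, and each shares its neuropeptide libraries with this one, so agreement between them is built in and is not counted. The share of mitochondrially encoded counts was at least 8.30% in every CGRP library and at most 5.54% in every NMU library. Its part in the enzyme differences was not tested. In bulk libraries, fewer cells of a type and less of an RNA per cell cannot be told apart.

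**Figure D4:**
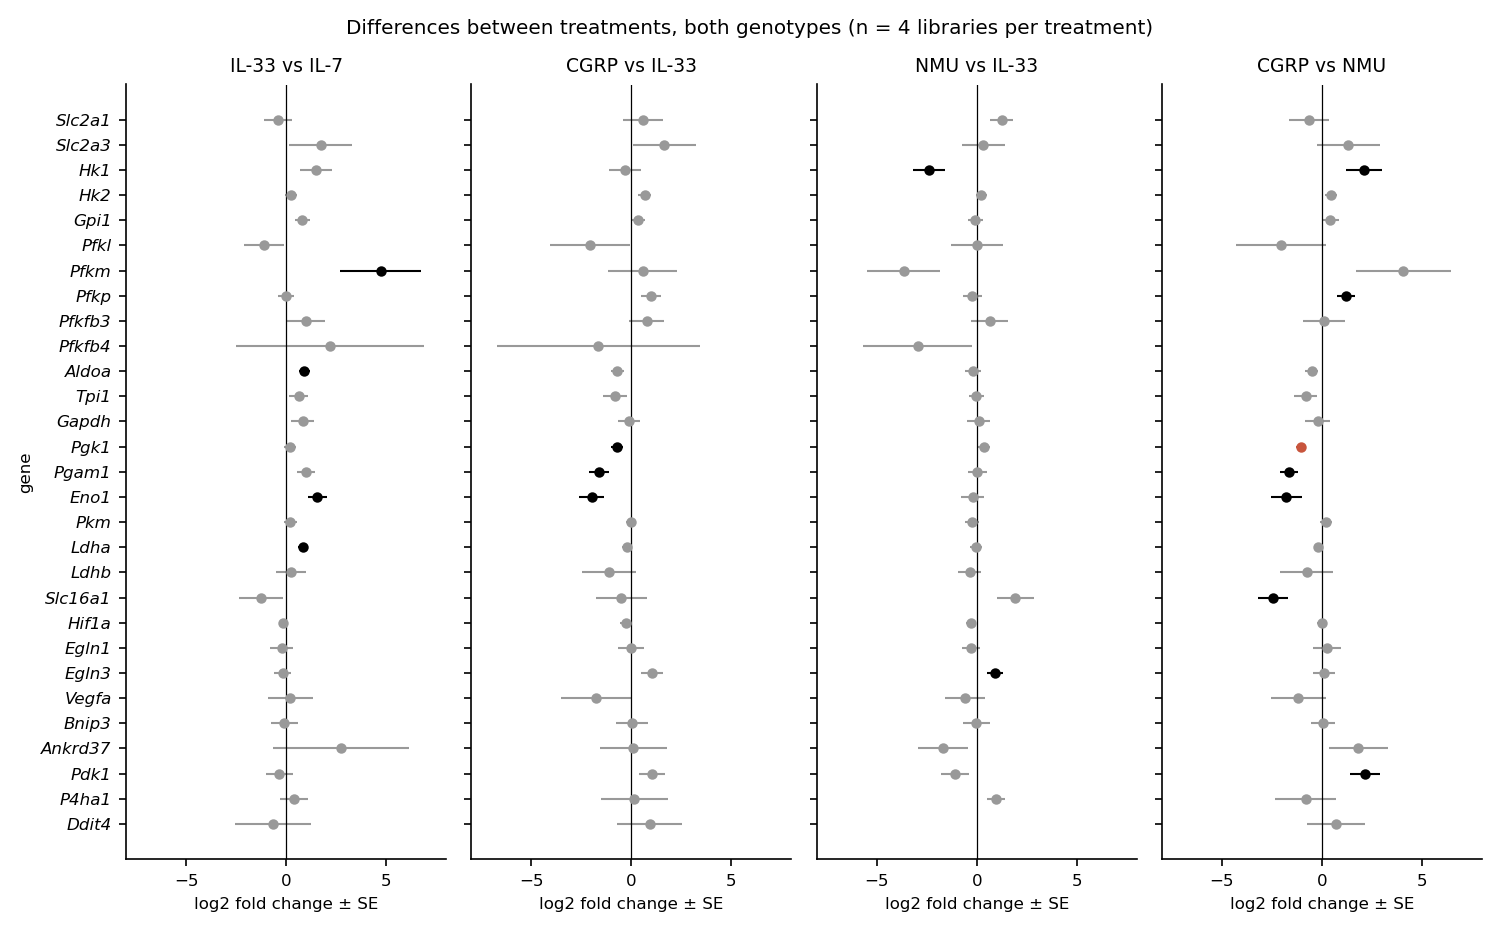
Log2 fold change (x axes) with its SE (bars) of each tested gene (y axis) in 4 treatment comparisons over both genotypes, 4 libraries per treatment, from edgeR. Red marks the gene past the cutoff (Pgk1, CGRP against NMU), black an unadjusted p below 0.05 and gray the rest; Pgam1, Eno1 and Pgk1 lie left of 0 where CGRP is compared with IL-33 and with NMU.

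Genotypes were compared over all treatments, 8 libraries against 8 with treatment held fixed. No member of 29 tested was called in edgeR, where 0.0801% of all genes were called, nor by DESeq2, where 0.514% were called. At an unadjusted p below 0.05 there were 2 members, Vegfa and Pfkfb4, both higher in Pac1-/- libraries, where 6.15% of all genes were below it. The members' median log2 difference was 0.26, and that of all genes 0.03.

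Vegfa, encoding the angiogenic growth factor VEGF-A, was a low transcript in all groups. With IL-7 it stood at 2.06 and 0.64 CPM in WT and at 14.9 and 9.42 CPM in Pac1-/- libraries. With IL-33 the values were 0.30 and 6.50 CPM against 3.01 and 9.85 CPM, with CGRP 0.44 and 0 CPM against 5.57 and 8.39 CPM, and with NMU 1.23 and 2.003 CPM against 5.06 and 6.92 CPM. The genotypes did not overlap with IL-7, CGRP or NMU and overlapped with IL-33. How many of all genes separate at 2 libraries against 2 was not computed, so this pattern is descriptive. Its medians were 0.94 CPM in WT and 7.66 CPM in Pac1-/- libraries, and the fitted log2 difference was 2.64 ± 0.90 (SE; edgeR unadjusted p = 0.00955, adjusted p = 0.803). The DESeq2 adjusted p was 0.0503. The difference was 3.45 without the second WT IL-33 library, 2.96 without both WT NMU libraries and 1.98 without both Pac1-/- CGRP libraries.

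Pfkfb4, a bifunctional enzyme of fructose 2,6-bisphosphate turnover, had 0 counts in 9 of 16 libraries and reached at most 6.99 CPM, in the first Pac1-/- CGRP library, so its fitted difference depends on the prior count. Its genotypes differed in direction by treatment: with IL-33 the WT libraries held 2.45 and 3.20 CPM and the Pac1-/- libraries 0 and 0.98 CPM. The gene Hk2, the hexokinase that dominated in these cells, ranged from 42.3 to 120 CPM in WT and from 52.7 to 152 CPM in Pac1-/- libraries, which overlapped. Its log2 difference was 0.40 ± 0.21 (SE; edgeR adjusted p = 0.8289), and it was 0.45 without both WT NMU and 0.29 without both Pac1-/- CGRP libraries.

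Within single treatments, 2 libraries against 2, no member was called by edgeR or DESeq2. With IL-7 there were 26 members tested and 2 at an unadjusted p below 0.05 in edgeR (Ankrd37 and Pfkp, both higher in Pac1-/-), where 0.00916% of all genes were called, 5.74% were below that p, and DESeq2 called 0.715%. With IL-33 there were 28 and 2 (Slc2a3 and Slc16a1, both higher), where the shares were 0.00874%, 5.04% and 0.577%. With CGRP there were 28 and 1 (Hif1a, lower), where they were 0.0%, 7.53% and 1.85%. With NMU there were 26 and 1 (Eno1, lower), where they were 0.0282%, 5.04% and 0.621%.

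Hif1a with CGRP stood at 671 and 733 CPM in WT and at 472 and 455 CPM in Pac1-/- libraries, a log2 difference of -0.61 ± 0.15 (SE; edgeR unadjusted p = 0.0127, adjusted p = 0.552). In the other treatments the Pac1-/- means were the higher ones, with IL-7 at 534 and 759 CPM against 1058 and 803 CPM, with IL-33 at 490.4 and 707 CPM against 626 and 1019 CPM, and with NMU at 525 and 472 CPM against 770.1 and 569 CPM. The Pac1-/- CGRP libraries were those with the B cell markers, whose part in this value was not tested. Eno1 with NMU stood at 108 and 282 CPM in WT and at 59.9 and 92.6 CPM in Pac1-/- libraries, the WT libraries being those with epithelial markers.

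**Figure D5:**
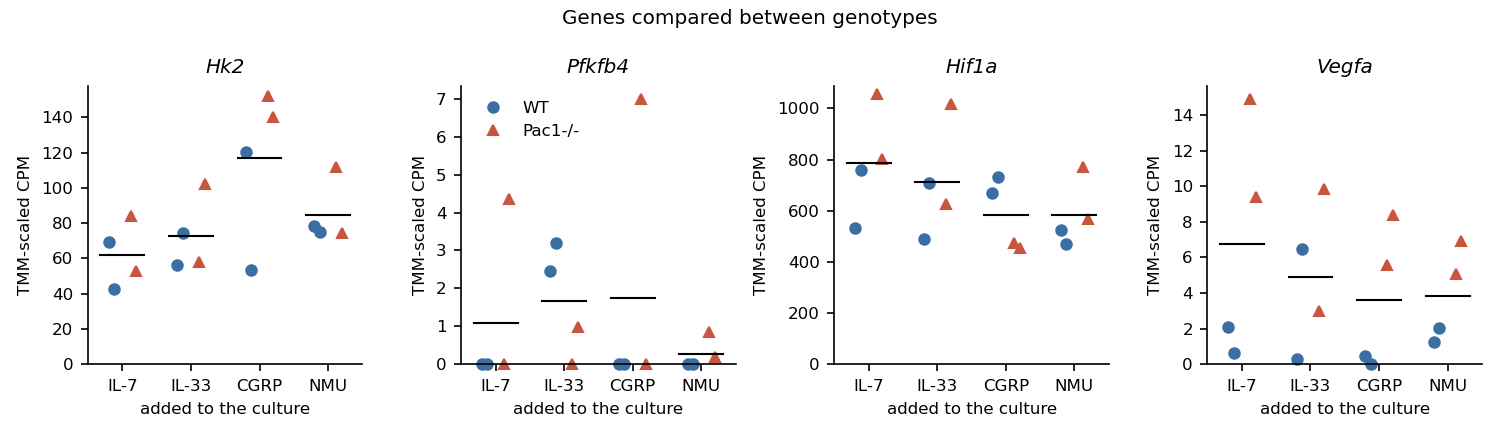
TMM-scaled CPM (y axes, from 0) of Hk2, Pfkfb4, Hif1a and Vegfa by addition to the culture (x axes), with WT libraries as blue circles, Pac1-/- libraries as red triangles and the mean of 4 libraries as a black line. Vegfa is higher in both Pac1-/- libraries than in both WT libraries with IL-7, CGRP and NMU, and the Pac1-/- libraries of Hif1a are below the WT ones with CGRP. The share of all genes that separate in this way was not computed.

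Whether the response to a treatment differed between genotypes was tested by an interaction term. No member was called for IL-33, CGRP or NMU by edgeR, where 0.0% of all genes were called in each, or by DESeq2, where 0.462%, 0.859% and 0.302% were called. At an unadjusted p below 0.05 there were 2 members of 29 for IL-33 (Ankrd37 and Gpi1), 3 of 29 for CGRP (Slc2a3, Hif1a and Pfkp, all negative) and 1 of 28 for NMU (Slc16a1, negative), where 5.65%, 5.46% and 6.37% of all genes were below it. The interaction of Hif1a with CGRP was -1.08 ± 0.43 on the log2 scale (SE; edgeR adjusted p = 0.853). For NMU, 22 of 28 members had a negative interaction and 6 a positive one, where 44.3% of all genes had a positive one. The median was -0.70, against -0.19 over all genes. A negative value means a smaller or more negative fitted response to NMU in Pac1-/- than in WT libraries. The WT NMU libraries with epithelial markers enter this comparison, and no member of the 28 passed the cutoff.

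The remaining hypoxia genes were low or variable. Bnip3, a mitophagy receptor, ranged from 2.30 to 20.1 CPM and P4ha1, a collagen prolyl hydroxylase subunit, from 0 to 47.4 CPM over all libraries. Egln1, the main HIF prolyl hydroxylase, ranged from 2.63 to 41.4 CPM and Ankrd37 from 0 to 10.8 CPM. Ddit4, an mTORC1 inhibitor induced by stress, had at most 17 counts in a library and was at or under the floor in 7 of 16. Pkm, pyruvate kinase, the second ATP-forming step, varied little, from 38.0 to 98.4 CPM, with log2 differences of -0.22 to 0.20 in the 4 treatment comparisons.

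A further 64 genes of the wider pathway were listed: other isoenzymes, pyruvate entry into mitochondria, the pentose phosphate branch, HIF regulators and further hypoxia targets. For CGRP against IL-33, edgeR called 1 of 50 tested, where it called 1.75% of all genes, and 8 had an unadjusted p below 0.05, where 15.1% of all genes did. DESeq2 called 2 higher (Bhlhe40 and Myc) and 4 lower (Pdp2, Pgd, Pgm1 and Taldo1), where it called 8.19% of all genes. For CGRP against NMU, edgeR called 3 of 50 (3.86% of all genes) and 15 had an unadjusted p below 0.05 (19.4%), while DESeq2 called 2 higher, Bhlhe40 and Epas1, and 5 lower, Ero1l, Pdp2, Pgd, Pgm1 and Tfrc (13.0%). For IL-33 against IL-7 the counts were 0 of 53 in edgeR, 9 at an unadjusted p below 0.05 (10.5% of all genes) and 1, Bsg, in DESeq2 (3.26%). For NMU against IL-33 they were 0 of 51, 7 (7.73%) and 0 in DESeq2 (1.35%).

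The gene edgeR called in both CGRP comparisons was Bhlhe40, a HIF-inducible transcriptional repressor. It stood at 249, 294, 353 and 352 CPM with CGRP, at 109, 89.99, 90.8 and 172 CPM with IL-33 and at 39.5, 69.4, 59.96 and 43.7 CPM with NMU, in the order WT then Pac1-/-. No CGRP library overlapped the others, where 5.82% of all genes were higher than with IL-33 and 6.86% higher than with NMU without overlap. Bhlhe40 was higher by 1.46 ± 0.23 on the log2 scale over IL-33 (SE; edgeR adjusted p = 0.0204) and by 2.56 ± 0.25 over NMU (adjusted p = 0.00199). Each call held in 8 of 8 fits that left out 1 library. Without both Pac1-/- CGRP libraries the differences were 1.45 (adjusted p = 0.332) and 2.33 (adjusted p = 0.0953), and without both WT NMU libraries the difference from NMU was 2.77 (adjusted p = 0.0271).

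Ero1l, an oxidase of disulfide bond formation, was lower with CGRP than with NMU, at 922, 945, 734 and 624 CPM against 1431, 1727, 1185 and 1696 CPM. The libraries did not overlap, where 6.46% of all genes were lower without overlap. The log2 difference of Ero1l was -0.90 ± 0.18 (SE; edgeR adjusted p = 0.0298). Its adjusted p was 0.0533 without the first and 0.0632 without the second WT CGRP library, 0.0576 without the first and 0.0987 without the second Pac1-/- CGRP library, and 0.105 without the second Pac1-/- NMU library. Without both WT NMU libraries the difference was -1.09 (adjusted p = 0.139), and without both Pac1-/- CGRP libraries -0.74 (adjusted p = 0.265). Pgm1, phosphoglucomutase, was also called lower (adjusted p = 0.0389), at 0 to 0.10 CPM with CGRP and 2.92 to 7.45 CPM with NMU, so no fold is given, and leaving out any 1 library raised its adjusted p to between 0.0789 and 0.116.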

How the data were processed

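Raw counts per gene were deposited by the authors for 16 libraries of mouse lung ILC2s. Per the study's methods, reads were aligned to mm10 with HISAT2. The counting tool, its use of strand and its treatment of reads that match several genes are not given in the sources used here, so genes with near-identical copies are uncertain. cDNA was amplified from about 500 cells and has no molecular identifiers, so counts are not independent molecules.

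Members, lists and tests were chosen with earlier results of these data known. Groups came from the sample labels. For each comparison, genes were filtered (filterByExpr), TMM-scaled and tested over all genes with edgeR 4.0.16 quasi-likelihood (R 4.3.3), treatments over both genotypes with genotype held fixed. Genes were called at an adjusted p (Benjamini-Hochberg) below 0.05 with a change of more than 1.5-fold. All adjusted p-values are from edgeR unless DESeq2 (1.42.0) is named. Levels are CPM scaled by TMM over 16 libraries. Near-identical genes were found with BLAST 2.17.0 (at least 95% identity over 100 bases). Genes described in full passed the cutoff or were among the 3 members with the lowest p in a treatment comparison or in the overall genotype comparison. Code was tested on simulated data. Alternatives were to drop the filter, to demand 10 or more counts per library, other scalings, DESeq2, all 16 libraries in one fit, a replicate block and leaving out libraries.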

Additional observations from a re-analysis of the deposited data

Results flagged for a closer look

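Of 48 groups of 4 libraries examined over the genes described in full, 4 held 1 library far from the other 3, on the log2(CPM + 1) scale. Chance alone gives about 1 in 20 such groups, but that rate does not apply to the Pfkfb4 groups, where 3 libraries were at exactly 0 and any value above 0 stands apart. Hk2 stood at 111.8 CPM in the first Pac1-/- NMU library, while the other NMU libraries lay between 74.1 and 78.3 CPM. Pfkfb4 stood at 4.35 CPM in the second Pac1-/- IL-7 library and at 6.99 CPM in the first Pac1-/- CGRP library, and at 0 in the other 3 libraries of each treatment. Pgam1 stood at 11.1 CPM in the second Pac1-/- CGRP library, below the 21.9 to 23.7 CPM of the other CGRP libraries.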

How the results depend on the processing

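The number of genes past the cutoff moved with the method. No described gene changed sign in any alternative run of a comparison where it was among the 3 members with the lowest p. In other comparisons signs could change. Without both Pac1-/- CGRP libraries, the log2 difference for CGRP against IL-33 moved from -0.31 to 0.35 for Hk1 and from -0.50 to 0.96 for Slc16a1. DESeq2 called 3 genes for IL-33 against IL-7, 2 for CGRP against IL-33 and 5 for CGRP against NMU, where edgeR called 0, 0 and 1. Without a filter on low counts edgeR called 3, 3 and 4, and with at least 10 counts in every library it called 1 for CGRP against IL-33 and 4 for CGRP against NMU. Leaving out 1 library at a time gave 0 to 2 called genes for CGRP against NMU and 0 to 0 in every other comparison. In fits chosen after seeing the data, CGRP against NMU had 0 called genes without both WT NMU libraries and 0 without both Pac1-/- CGRP libraries. The cause was not tested. DESeq2 also called more of all genes in every comparison, for instance 1674 against 495 for CGRP against NMU. The labels number the libraries of each group, but the deviations of same-numbered libraries correlated at only -0.06 to 0.04 over 28 pairs of groups, so the numbers were not taken as pairs. With the replicate block, Pgk1 differed by -1.07 (adjusted p = 0.0338 in edgeR) between CGRP and NMU, and the block changed no other call. Ddit4 had at most 17 counts in a library and was at or under the floor of 3 counts in 7 of 16, so small differences in it were not detectable at this depth.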
